A study of Mus musculus with 15 samples.

Results

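Early 2-cell mouse embryos (E2C) were set against metaphase II (M2) eggs, pooling both genotypes of the female donors. The comparison holds 9 of the 15 libraries of the series, chosen by the stage and donor genotype in the sample titles: 3 E2C libraries from Eif4e1b Het donors, 2 E2C libraries from Eif4e1b KO donors, 2 M2 libraries from Het donors and 2 M2 libraries from KO donors. The 6 other libraries are PN5 zygotes, which serve to place a level and enter an alternative fit of all 15 libraries. All donors, Het and KO alike, were of the B6D2F1 strain and carried Rpl22 HA, an HA tag on a protein of the large ribosomal subunit. Eif4e1b encodes an oocyte-specific relative of the cap-binding translation factor eIF4E. Each library pooled about 100 early 2-cell embryos, or about 200 eggs. Lysates were digested with RNase I, ribosomes were pulled down through the tag, and the protected RNA fragments were counted per gene. The label gives the donor's genotype only, so E2C KO means an embryo of a KO mother.

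A ribosome protects the stretch of mRNA that it covers, so fragment counts per gene record how much of each mRNA lies on ribosomes. The full-grown egg is silent in transcription and works from stored maternal mRNA, whose translation is switched on and off through the poly(A) tail and cap-binding proteins. After fertilisation the maternal store is progressively destroyed, and the embryonic genome starts to be transcribed by the 2-cell stage in mouse. Fragment counts here reflect mRNA amount as well as translation, and the mRNA amounts were not analysed here.

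The E2C libraries were shallow. Without the rows of ribosomal RNA and of mitochondrially encoded genes they kept 2712, 2748 and 9606 counts in E2C Het 1 to 3 and 3448 and 1807 in E2C KO 1 and 2. The M2 libraries kept 27090 and 26329 counts in M2 Het 1 and 2 and 12788 and 64111 in M2 KO 1 and 2. Protein-coding genes held 1059 to 7795 of these in E2C, against 5997 to 47397 in M2, and 318 to 577 such genes had a count in an E2C library, against 497 to 1560 in an M2 library. Total counts, cytosolic rRNA included, were lower in every E2C library than in every M2 library, at 121358 ± 37221 in E2C and 725887 ± 377565 in M2 (SD, n = 5 and 4). Within genotypes that difference was 5.73-fold, with an exact two-sided permutation p of 0.0167, the smallest that the 60 arrangements allow, and 0.0667 after adjustment over 4 measures. Fewer embryos than eggs in a pool, less RNA in each, pulldown yield and sequencing depth cannot be told apart in such a total. At this depth 1 count stood for 116 to 333 CPM (counts scaled to the TMM-adjusted library size) in E2C libraries and for 16.1 to 124 CPM in M2 libraries.

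**Figure D1:**
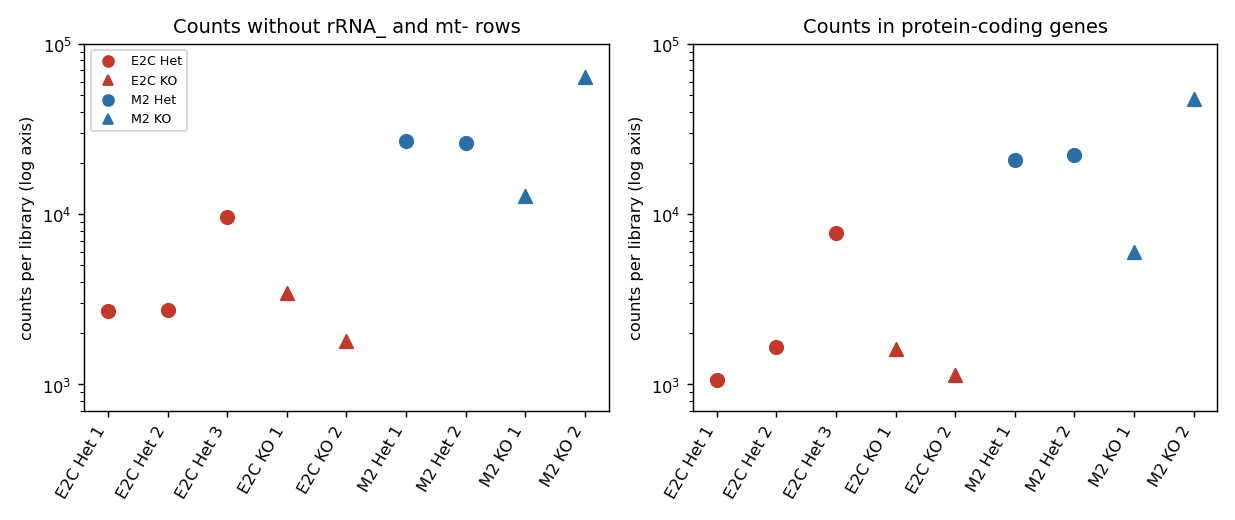
Counts in each library without ribosomal RNA and mitochondrial rows (left) and counts in protein-coding genes (right), on log axes, for the 5 E2C and the 4 M2 libraries. E2C libraries kept 1807 to 9606 counts, all below the lowest M2 library at 12788, and E2C Het 3 stood above the other E2C libraries.

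The labels were checked against markers. Eif4e1b had 0 counts in all 15 libraries, Het ones included, so the counts do not check the genotype labels, and the tagged Rpl22 was at 0 too. Of 57 genes of the 2-cell and zygotic genome activation list in the table, 8 had a count: they took 0.189% to 1.04% of protein-coding counts in E2C libraries and 0.0191% to 0.184% in M2 libraries, without overlap. The lowest E2C share, in E2C Het 1, was 1 count each of Zbed3 and Kdm5b. That lies below the share of 3 counts in that library, 0.283%, so the separation rests on few counts. Of the 114 E2C counts of the list, 81 came from E2C Het 3. Zscan4, Obox and Usp17l genes, which define the mouse 2-cell programme, were at 0 in both stages. The members behind this share were mostly others. Zbed3, an egg and embryo cortex protein, had 35 counts in E2C and 80 in M2; Nop56, a nucleolar protein, 31 and 12; and Kdm5b, a histone H3 demethylase, 13 and 4. Dppa4 with 13 counts in E2C Het 3 only, and Sox2 with 12 counts in E2C Het 2 and 1 in M2, are regulators of pluripotency. Of 41 oocyte and egg markers in the table, the zona pellucida genes Zp1, Zp2 and Zp3 were at 0 everywhere, also in M2 eggs. The list took 0 in 4 E2C libraries and 0.68% in E2C Het 3, against 0.0909% to 0.481% of protein-coding counts in M2. Of the 14 members with a count, 6 had counts in E2C Het 3 and none in M2: Gdf9 (11 counts), Bmp15 (8), Tcl1 (7), Omt2b (6), Tcl1b1 (5) and Omt2a (3). Another 6 had none in E2C and counts in M2: Nlrp5 (14), Rfpl4 (6), Zar1 (5), Kit (5), Wee2 (3) and Mos (3). E330034G19Rik had 4 counts in E2C and 220 in M2, and Spin1 9 and 6. The 31 cumulus and granulosa markers held 11 counts in E2C and 356 in M2, at 0 to 0.302% of protein-coding counts in E2C and 0.05% to 0.909% in M2. Of the M2 counts 160 were Cyp11a1, an enzyme of steroid synthesis, in M2 Het 1 alone. Blood and sperm markers were at 0 in all 9 libraries. The part of these markers in the gene results was not tested.

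E2C Het 3 stood apart from the other 4 E2C libraries. It held 7795 of the 13267 protein-coding counts of E2C, and protein-coding genes made up 4.57% of its counts, against 0.696% to 1.78% in the others. All 53 counts of oocyte and egg markers in E2C came from it. Without it 15 of the 17 genes called below still passed in edgeR, and Nrd1 and Piezo2 did not. The fold moved by over 1.5 times for 5 of the 17: the log2 fold change was then -2.63 for Golgb1, -2.40 for Map1b, -3.84 for Txndc2, -3.27 for Nrd1 and -4.15 for Piezo2.

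The 10 protein-coding genes with the largest mean share of protein-coding counts over the 9 libraries together took 22.2% ± 7.36 in E2C and 42.9% ± 8.73 in M2 (SD, n = 5 and 4). This is a description, since the genes were chosen on these shares and 9 of the 10 had the higher mean in M2. The M2 profile was led by Ncl, which encodes nucleolin, an abundant nucleolar RNA-binding protein, at 3.75% ± 2.13 in E2C against 10.6% ± 1.89 in M2. Eif5b, the GTPase that joins the ribosomal subunits at the start of translation, followed with 2.8% ± 0.928 in E2C and 7.31% ± 2.24 in M2. Nexn, an actin-binding protein, had 2.44% ± 1.76 in E2C and 5.87% ± 1.52 in M2, and Anp32b, an acidic histone chaperone, 0.951% ± 1.34 in E2C and 5.73% ± 1.86 in M2. In E2C the leading gene was Cdk11b, a kinase linked to transcription and splicing, at 8.57% ± 9.51 against 1.03% ± 0.707 in M2, with 0 counts in both KO libraries of E2C and 1236 of its 1647 E2C counts in E2C Het 3. The fit described next, which takes genotype into account, put its log2 fold change at -0.52 (adjusted p = 0.878), a sign opposite to that of the shares, and the sign varied with the setting. Other genes among the leading 8 of E2C were Incenp, the scaffold of the chromosomal passenger complex, with 1.45% ± 1.25 in E2C and 0.153% ± 0.117 in M2, and Gigyf2 with 1.94% ± 0.982 in E2C and 0.223% ± 0.117 in M2.

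After the filter on low counts, 89 genes were tested, 72 of them protein-coding, and 17 passed a Benjamini-Hochberg adjusted p of 0.05 in edgeR's quasi-likelihood test with genotype as a covariate (19.1% of those tested). Of these, 14 were lower in E2C (15.7%) and 3 higher (3.37%), while 38 (42.7%) had an unadjusted p under 0.05, 27 of them lower and 11 higher. The median log2 fold change of all 89 was -0.83, so a gene at that value kept pace with the typical tested gene. The balance of directions followed the scaling: 4 higher and 6 lower with DESeq2 size factors (median -0.14), 6 and 5 with library totals alone (-0.23), 9 and 4 of 87 with protein-coding totals (0.11), and 1 and 2 of 64 with ribosomal and mitochondrial rows kept (0.28). Each of the 17 genes kept its direction, and its side of the median, in every one of these scalings in which it was tested. The groups did not overlap for 23 genes lower in E2C (25.8%) and 3 higher (3.37%). Among the 3 higher, Incenp separated by less than 1 count. The filter asked for 1041 CPM, here per kept count, in at least 4 libraries. For 6 of the 89 genes every M2 library and no E2C library reached it, so that they could enter only as lower in E2C: Cenpe, Ktn1, Hsp90aa1, Golgb1, Nefh and Txndc2, all among the 14 called lower. For 6 others it was the reverse, with at least 4 E2C libraries and no M2 library at that level: Creb5 and Gm25855, which were called higher, and Rbm28, Tpx2, Nop58 and Gm24452, which were not called. Cenpf, Nrd1 and Piezo2, also called lower, reached that level in 1 E2C library each, so they entered through their M2 levels.

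**Figure D2:**
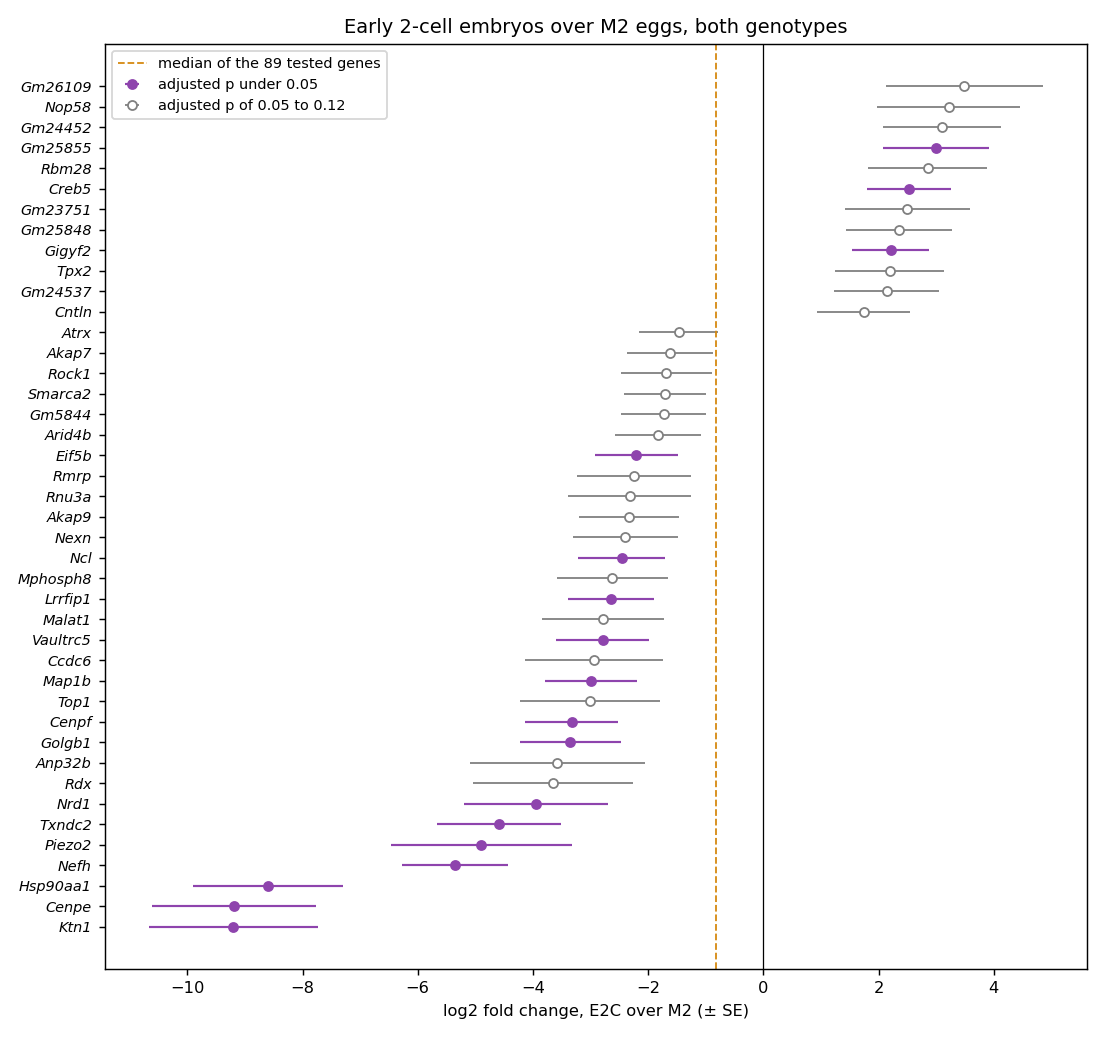
Log2 fold change of E2C over M2 with its SE for genes with an adjusted p under 0.05 (filled) and from 0.05 to 0.12 (open), with the median of the 89 tested genes as a dashed line. Ktn1, Cenpe and Hsp90aa1, with no count in E2C, lie furthest to the left, at -9.20, -9.19 and -8.60.

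The kinetochore genes Cenpe and Cenpf fell. Cenpe (chromosome 3, 135212563 to 135273540, GRCm38.p6) encodes the kinesin motor that carries chromosomes to the spindle equator. It had 0 counts in each of the 5 E2C libraries, against 72, 95, 53 and 491 counts in M2 Het 1, M2 Het 2, M2 KO 1 and M2 KO 2. At the M2 level 131 counts would have fallen in the E2C libraries together, so the gene was at least 43.6-fold lower in E2C, taking 3 counts over the group as the limit of detection (adjusted p = 0.00453). That limit was 26.1-fold without E2C Het 3 and 28.7-fold without M2 KO 2. Limits of this kind, here and below, cover counting error alone and not the spread between libraries. PN5 Het 3, which kept more counts than any E2C library, also had 0 counts of Cenpe, against 37 to 224 in the other PN5 libraries. Cenpf (chromosome 1, 189640606 to 189688107), a large protein of the outer kinetochore, had 0, 1 and 1 counts in E2C Het 1 to 3 and 0 and 2 in E2C KO 1 and 2. In M2 it had 38 and 47 counts in the Het libraries and 17 and 174 in the KO libraries. Its level was 211 ± 259 CPM in E2C and 2131 ± 508 CPM in M2, which gave -3.33 ± 0.81 on the log2 scale (SE, adjusted p = 0.0212). Cenpf passed in 5 of 9 fits that each left out 1 library, with adjusted p of 0.0573 to 0.07 in the other 4, and ran from -4.16 without E2C KO 2 to -2.66 without E2C KO 1. For both genes every E2C library lay below every M2 library.

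No other tested gene of the meiosis, mitosis and cell cycle list passed. Of 48 members with counts, 6 were tested, 2 fell and none rose in edgeR, against 15.7% called lower and 3.37% higher of all tested genes (median log2 fold change -1.34, against -0.83). DESeq2 called 2 lower and 2 higher. Cenpe passed the filter only through M2, so its direction was fixed by it. Cenpf reached the filter level in 1 of 5 E2C libraries, where at least 4 libraries were asked for, so it too entered through its M2 level. Neither call says anything of the list. Smc4, a condensin subunit, had 1397 ± 1003 CPM in E2C and 4768 ± 1333 CPM in M2 (log2 fold change -1.82, adjusted p = 0.146). Incenp had 9297 ± 12397 CPM in E2C and 1235 ± 890 CPM in M2 (log2 fold change 2.43, adjusted p = 0.21). Its lowest E2C level, 2119 CPM in E2C KO 2, lay just above its highest M2 level, 2109 CPM in M2 KO 1. That gap is smaller than 1 count in E2C KO 2, which stood for 303 CPM. Of the 318 E2C counts of Incenp, 270 came from E2C Het 3. Tpx2, a spindle assembly factor that activates Aurora A, had 1827 ± 1157 CPM in E2C and 363 ± 255 CPM in M2 (log2 fold change 2.19, adjusted p = 0.0956). It passed the filter only through E2C, so its direction was fixed by it. Cntln, a centrosomal linker protein that is not on the list, had 6556 ± 3361 CPM in E2C and 2206 ± 1845 CPM in M2 (1.74, adjusted p = 0.117). The share of the whole list in protein-coding counts overlapped between the stages, at 2.3% to 7.84% in E2C and 2.23% to 3.97% in M2.

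On the list of the endoplasmic reticulum, Golgi and protein folding, 33 genes had counts and 3 were tested: Ktn1, Hsp90aa1 and Golgb1, each of which fell in edgeR (15.7% of all tested genes did). All 3 passed the filter only through M2, so their direction was fixed by it and their count says nothing of the list. Ktn1 (chromosome 14, 47648274 to 47736564) encodes kinectin, a kinesin-binding membrane protein of the endoplasmic reticulum. It had 0 counts in all 5 E2C libraries, against 4576 and 4625 CPM in M2 Het 1 and 2 and 5210 and 4956 CPM in M2 KO 1 and 2. The M2 values were close to each other, and E2C was at least 34.8-fold lower (104 counts expected at the M2 level, adjusted p = 0.00453), or 20.8-fold without E2C Het 3. Hsp90aa1 (chromosome 12, 110691036 to 110696395), the inducible cytosolic form of the chaperone HSP90, also had 0 counts in all E2C libraries, against 48, 110, 18 and 184 in M2 Het 1, Het 2, KO 1 and KO 2. It was at least 22.1-fold lower in E2C (66.2 counts expected, adjusted p = 0.00453), or 13.2-fold without E2C Het 3. The limits for Ktn1 and Hsp90aa1 cover counting error alone. Golgb1, the Golgi tether giantin, had 238 ± 238 CPM in E2C and 2145 ± 585 CPM in M2 (log2 fold change -3.35 ± 0.87, adjusted p = 0.0285). It passed in 3 of the 9 fits leaving out a library, with adjusted p of 0.0518 to 0.0654 in the other 6, and in none of the 3 other scalings that tested it (0.0547 to 0.0989).

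The list's share of counts includes the members that were not tested. The 33 genes took 0.121% to 0.924% of protein-coding counts in E2C and 1.84% to 8.33% in M2. Canx, which encodes the lectin chaperone calnexin, carried the most counts: 0 in E2C against 783 in M2 Het 2 and 1145 in M2 KO 2, with 0 in the other M2 libraries. Without Canx the M2 share was 1.84% to 4.82%, still above every E2C library. Hsp90ab1, the constitutive HSP90, went the other way, with 46 counts in E2C Het 3 only and none in M2.

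Map1b, Lrrfip1 and Ktn1 fell among the microtubule and actin-linked genes. Of 41 members of the cytoskeleton list with counts, 7 were tested, 3 fell and none rose in edgeR, against 15.7% called lower and 3.37% higher of all tested genes (median log2 fold change -2.65, against -0.83). That count and that median include Ktn1, which passed the filter only through M2, so its direction was fixed by it. DESeq2 called 4 lower and 1 higher, and limma-voom 5 lower. Map1b (chromosome 13, 99421464 to 99516602), a microtubule-associated protein, had 2301, 4667 and 578 CPM in E2C Het 1 to 3 and 1949 and 5146 CPM in E2C KO 1 and 2. In M2 it had 26340 and 31153 CPM in the Het libraries and 20466 and 14821 CPM in the KO libraries, a log2 fold change of -2.99 ± 0.80 (adjusted p = 0.0299). Lrrfip1 (chromosome 1, 90996930 to 91128944), which binds the actin regulator Flightless I as well as nucleic acids, had 3976 ± 1618 CPM in E2C and 25420 ± 13689 CPM in M2 (-2.65 ± 0.75, adjusted p = 0.0391). The highest E2C value of each gene lay below its lowest M2 value. Both calls rest on the libraries and the scaling: each gene passed in 3 of the 9 fits leaving out a library, with adjusted p of 0.0527 to 0.101 for Map1b and 0.0541 to 0.138 for Lrrfip1 in the other 6. Neither passed in any of the 4 other scalings, where Map1b had log2 fold changes of -2.48 to -2.03 (adjusted p = 0.0635 to 0.117) and Lrrfip1 -2.07 to -1.69 (0.0748 to 0.177).

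Of the 4 tested members that did not pass, 3 had negative log2 fold changes and Dst a positive one. Nexn had 9956 ± 6202 CPM in E2C and 49235 ± 15742 CPM in M2 (log2 fold change -2.40, adjusted p = 0.0816, and 0.0483 without E2C Het 3). The microtubule and actin linker Dst had a log2 fold change of 0.89 (adjusted p = 0.302). The list took 1.28% to 10.9% of protein-coding counts in E2C and 12.9% to 18.8% in M2, without overlap, and without Nexn it took 1.22% to 5.99% in E2C and 8.25% to 11.6% in M2. Nefh (chromosome 11, 4938754 to 4948064), the heavy neurofilament subunit, is not on the list and also fell: it had 1 count in E2C KO 1 and none in the other E2C libraries, against 35, 47, 26 and 175 counts in M2 Het 1, Het 2, KO 1 and KO 2. Its log2 fold change was -5.35 ± 0.92 (adjusted p = 0.00453), and without E2C KO 1 it had no count in E2C. Nefh passed the filter only through M2, so its direction was fixed by it.

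**Figure D3:**
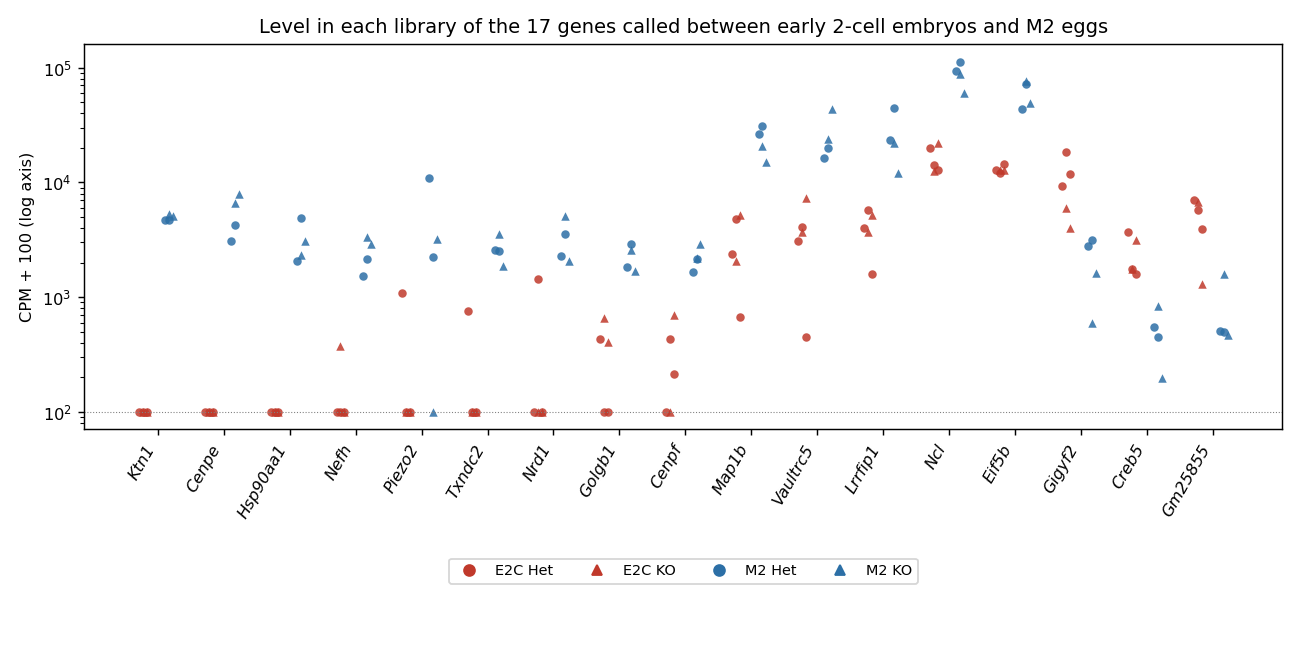
Level of the 17 genes that passed the test in each library, as CPM + 100 on a log axis, with E2C (red) to the left of M2 (blue), circles for Het and triangles for KO donors. The dotted line marks a count of 0, at which Ktn1, Cenpe and Hsp90aa1 lie in all 5 E2C libraries.

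Ncl and Eif5b, which led the egg profile, also fell. Ncl (chromosome 1, 86344719 to 86359455) had 19720, 14000 and 12840 CPM in E2C Het 1 to 3 and 12528 and 21794 CPM in E2C KO 1 and 2. In M2 it had 94108 and 112920 CPM in the Het libraries and 88687 and 59574 CPM in the KO libraries, a log2 fold change of -2.46 ± 0.76 (adjusted p = 0.0440). Eif5b (chromosome 1, 37998010 to 38055579) was even across the E2C libraries, at 12936 ± 857 CPM, against 60345 ± 16421 CPM in M2 (-2.21 ± 0.72, adjusted p = 0.0493). Neither gene's groups overlapped. Without E2C Het 3 both passed (adjusted p = 0.0368 for Ncl and 0.0257 for Eif5b), but leaving out any other library ended both calls, at 0.052 to 0.167 for Ncl and 0.0618 to 0.201 for Eif5b. Neither passed in any of the 4 other scalings. There Ncl had log2 fold changes of -1.88 to -1.50 (adjusted p = 0.0518 to 0.224) and Eif5b -1.68 to -1.34 (0.0985 to 0.236). Eif3a, the other tested translation factor of 24 with counts, had 37 counts in E2C KO 1 and none in the other E2C libraries, against 44 to 409 in M2 (log2 fold change -3.08, adjusted p = 0.158).

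Ncl was the single gene of the nucleolus list called in edgeR. Of 43 nucleolus and ribosome biogenesis genes with counts, 4 were tested, 1 fell and none rose, against 15.7% called lower and 3.37% higher of all tested genes (median log2 fold change 0.20, against -0.83). DESeq2 called 1 lower and 1 higher, Nop58. Nop58, a core protein of the box C/D small nucleolar RNA particles, had 3971 ± 5548 CPM in E2C and 434 ± 377 CPM in M2 (3.22, adjusted p = 0.0822), with 118 of its 139 E2C counts in E2C Het 3; without that library the value was 2.03 (adjusted p = 0.0915). Nop58 passed as higher in DESeq2 (3.83, adjusted p = 0.00119) and, in edgeR, with library totals (adjusted p = 0.0446) and protein-coding totals (0.0329). Rbm28, a nucleolar RNA-binding protein that is not on the list, had 4438 ± 5508 CPM in E2C and 502 ± 291 CPM in M2 (2.85, adjusted p = 0.0771). Nop58 and Rbm28 passed the filter only through E2C, so their direction was fixed by it. Wdr43, a factor of the small subunit processome, had 3186 ± 4232 CPM in E2C and 1585 ± 226 CPM in M2 (0.09, adjusted p = 0.941). The list took 6.1% to 7.84% of protein-coding counts in E2C and 9.8% to 13.5% in M2. Without Ncl the ranges overlapped, at 1.5% to 4.89% in E2C and 1.01% to 1.99% in M2. The 2 ribosomal protein genes tested of 29 with counts, Rpl4 and Rps14, had log2 fold changes of 1.18 and 0.29 (adjusted p = 0.201 and 0.784).

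The remaining protein-coding genes that fell have no group in common here. Txndc2, a thioredoxin best known from sperm, had 2 counts in E2C Het 1 and none in the other E2C libraries, against 60, 55, 28 and 111 in M2 Het 1, Het 2, KO 1 and KO 2 (log2 fold change -4.59 ± 1.08, adjusted p = 0.0192). It passed in 7 of the 9 fits leaving out a library, with adjusted p of 0.0541 and 0.0558 in the others. Txndc2 passed the filter only through M2, so its direction was fixed by it. Nrd1, the metalloprotease nardilysin, had 4 counts in E2C Het 2 and none in the other E2C libraries, against 40 to 121 in M2 (-3.95 ± 1.25, adjusted p = 0.0481). Piezo2, a mechanically gated cation channel, had 3 counts in E2C Het 1 only, against 261, 49, 0 and 193 in M2 Het 1, Het 2, KO 1 and KO 2, so its groups overlapped at 0 (-4.90 ± 1.57, adjusted p = 0.0487). Each passed in 1 of the 9 fits, Nrd1 without E2C Het 2 and Piezo2 without M2 KO 1, with adjusted p of 0.0579 to 0.138 for Nrd1 and 0.0659 to 0.141 for Piezo2 in the other 8, and neither passed in another scaling. Nrd1 and Piezo2 reached the filter level in 1 E2C library each, so they entered through their M2 levels.

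Gigyf2 rose. It encodes a partner of the cap-binding protein 4EHP, another relative of eIF4E, and the pair represses the mRNAs it binds. Gigyf2 (chromosome 1, 87326931 to 87450810) had 9203, 18334 and 11799 CPM in E2C Het 1 to 3 and 5846 and 3935 CPM in E2C KO 1 and 2. In M2 it had 2679 and 3054 CPM in the Het libraries and 496 and 1513 CPM in the KO libraries. Every E2C library lay above every M2 library, and the level was 4.63-fold higher in E2C (log2 fold change 2.21 ± 0.67, adjusted p = 0.0440). The call held without E2C Het 3 (adjusted p = 0.0257) and was lost in the 8 fits that left out another library (0.052 to 0.154), where the log2 fold change stayed at or above 2.05. It passed in 3 of the 4 other scalings, and with ribosomal and mitochondrial rows kept the adjusted p was 0.0513. It was the single tested gene of 36 with counts on the list of maternal mRNA storage, tailing and decay. The list took 1.74% to 3.87% of protein-coding counts in E2C and 0.183% to 1.7% in M2, and without Gigyf2 the ranges overlapped, at 0.363% to 1.23% in E2C and 0.117% to 1.5% in M2.

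Creb5 and Gm25855 were the other genes that passed as higher. Creb5 (chromosome 6, 53287226 to 53700364), a transcription factor of the CREB family, had 2297 ± 960 CPM in E2C and 411 ± 268 CPM in M2 (log2 fold change 2.53 ± 0.73, adjusted p = 0.0391). It passed in 3 of the 9 fits leaving out a library, with adjusted p of 0.0541 to 0.154 in the other 6, and in all 4 other scalings. Creb5 passed the filter only through E2C, so its direction was fixed by it and these fits are no separate support for a rise. Its counts, however, were 11, 5 and 13 in E2C Het 1 to 3, 6 and 10 in E2C KO 1 and 2, 11 and 8 in M2 Het 1 and 2 and 6 in each M2 KO library. Over all 15 libraries they ran from 5 to 13, a 2.6-fold range, while the kept counts of the libraries ranged 35.5-fold. That was the narrowest range among the 50 tested genes with a count in every library, where the next, Mir6236, ranged 11.3-fold. The CPM of Creb5 therefore ran opposite to library size. Gm25855, which has no RefSeq match here, had 21, 17, 33, 24 and 4 counts in the E2C libraries and 10, 9, 12 and 23 in the M2 libraries (7.98-fold higher in E2C, SE of 0.92 on the log2 scale, adjusted p = 0.0440), with overlapping groups. It passed in 3 of the 9 fits, with adjusted p of 0.0616 to 0.169 in the other 6. Gm25855 too passed the filter only through E2C, so its direction was fixed by it.

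Chromatin genes lay among the leading egg mRNAs, but none of those tested passed. Anp32b had 32 counts in each of E2C Het 2 and E2C KO 2 and none in the other E2C libraries, against 464 to 1683 in M2 (log2 fold change -3.58 ± 1.52, adjusted p = 0.0956). Top1, DNA topoisomerase I, had 18, 13 and 22 counts in E2C Het 2, KO 1 and KO 2 and none in E2C Het 1 and 3, against 235 to 1133 in M2 (-3.01, adjusted p = 0.0909). For both genes the stages did not overlap, and the SE was large. The histone variant and chaperone list, with 3 tested and none called (edgeR), took 0.85% to 3.76% of protein-coding counts in E2C and 6.04% to 10.6% in M2; without Anp32b it took 0.85% to 3.76% in E2C and 1.54% to 2.88% in M2, which overlap.

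The shares of other chromatin lists overlapped between the stages. ATP-dependent remodellers, with 4 of 29 tested and none called, took 3.44% to 5.11% in E2C and 3.53% to 4.42% in M2. Within that list Smarca2 and Smarca4, the alternative motor subunits of the BAF complex, differed in sign: Smarca2 had 2663 ± 1198 CPM in E2C and 8606 ± 4029 CPM in M2 (log2 fold change -1.71, adjusted p = 0.094), and Smarca4 had 3689 ± 3511 CPM in E2C and 1082 ± 1330 CPM in M2 (1.59, adjusted p = 0.165). Smarca4 was also the single maternal-effect gene tested, of 23 with counts. The maternal-effect list took 1.11% to 1.85% in E2C and 0.5% to 1.08% in M2, without overlap. Its top gene Tpr had 0 counts in E2C and 344 in M2, so leaving Tpr out could not end that separation. Smarca4 held 104 of the list's 216 E2C counts. In E2C Het 2 it had 19, and the only other member with a count there, Smchd1, had 1. The separation thus rests on Smarca4 in that library, and the share without Smarca4 was not computed. For chromatin, histone and DNA modifiers took 2.4% to 5.24% in E2C and 2.32% to 3.45% in M2, with 4 tested and none called.

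Of all 22 lists, 3 had every E2C share above every M2 share (13.6%) and 4 had every E2C share below (18.2%). The 3 are the 2-cell, the maternal-effect and the maternal mRNA storage lists, and the 4 are the cytoskeleton, the nucleolus, the histone chaperone and the endoplasmic reticulum lists. The separation of the 2-cell list rests on few counts, and that of the maternal-effect list on Smarca4 in E2C Het 2, as given above. Leaving out the top gene of each list ended the separation of the nucleolus, histone chaperone and mRNA storage lists and separated the remodellers, with E2C above M2. The top gene is the member with the most counts, so the deeper M2 libraries weigh most in its choice. For the remodellers it was Atrx, at a mean of 0.878% of protein-coding counts in E2C and 1.63% in M2. Leaving Atrx out lowered M2 more, so that new separation is no separate result. With all members but without E2C Het 3, 3 lists lay above and 5 below. RNA polymerase II genes (3 tested), splicing and nuclear RNA-binding proteins (7), DNA-bound chromatin proteins (4) and A-kinase anchoring proteins (3) had no called gene. Their median log2 fold changes were -0.52, -0.43, -2.29 and -2.15. The 9 lists with tested genes and no call held 29 genes, of which 5 had an unadjusted p under 0.05 in edgeR, 3 were called by DESeq2 and 4 by limma-voom. Proteasome and oxidative phosphorylation subunits had 11 and 3 counts in E2C and 61 and 37 in M2, too few for a test.

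**Figure D4:**
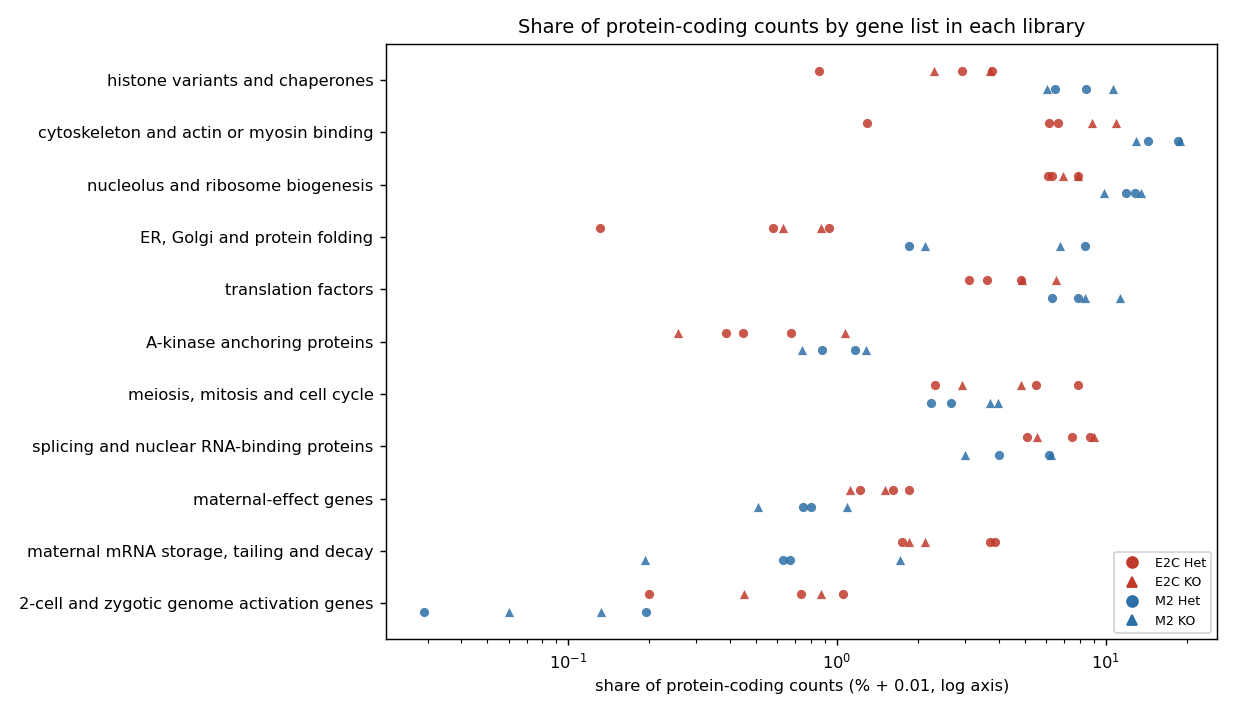
Share of protein-coding counts taken by 11 gene lists in each library, as percent + 0.01 on a log axis, with E2C (red) above M2 (blue), circles for Het and triangles for KO donors. The cytoskeleton list took 1.28% to 10.9% in E2C and 12.9% to 18.8% in M2, and the 2-cell list 0.189% to 1.04% in E2C and 0.0191% to 0.184% in M2.

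Noncoding rows took a large part of the kept counts. CT010467.1, a row with no RefSeq match, held 6.2% to 32.1% of them in E2C and 1.2% to 40.8% in M2 (log2 fold change 0.73, adjusted p = 0.715). Mir6236 (chromosome 9, 110281287 to 110281409) held 1.47% to 11.6% in E2C and 1.49% to 5.23% in M2 (0.53, adjusted p = 0.682). It is shown because it was the most abundant named microRNA row in both stages. Its mature sequence (RefSeq, chr9:110281353-110281371, plus strand, GRCm38.p6) has its seed, bases 2 to 8, in capitals.
mmu-miR-6236: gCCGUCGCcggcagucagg
The sources used here do not say how fragments that match several places were counted, so these short rows are uncertain. Rows were dropped by name alone (rRNA_ and mt-), so CT010467.1 and Mir6236 stay in the kept counts and in the library size. Their levels did not separate the stages.

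Among the nuclear and structural noncoding RNAs, 7 were tested, 1 fell and none rose in edgeR, a share near the 15.7% called lower of all tested genes (median log2 fold change -2.24, against -0.83). DESeq2 called 2 lower and 1 higher, and limma-voom 1 lower. Vaultrc5, a vault RNA, had 3638 ± 2479 CPM in E2C and 25943 ± 12325 CPM in M2 (-2.79 ± 0.81, adjusted p = 0.0392), without overlap. It passed without E2C Het 3 (adjusted p = 0.0315), not in the other 8 fits leaving out a library (0.052 to 0.138) and in none of the 4 other scalings (-2.40 to -1.79, adjusted p = 0.067 to 0.189). Malat1, a long nuclear RNA, had 5429 ± 3493 CPM in E2C and 40544 ± 44874 CPM in M2 (-2.78, adjusted p = 0.0816), also without overlap. The list took 3% ± 2.65 of kept counts in E2C and 8.04% ± 5.54 in M2 (SD, n = 5 and 4; exact two-sided permutation p = 0.117, adjusted 0.156). Fragments of nuclear RNA are not ribosome footprints, and their part in the other results was not tested. The small RNA rows Gm24452 and Gm26109, named after their values were seen, had log2 fold changes of 3.10 and 3.49 (adjusted p = 0.0531 and 0.0822). Gm24452 passed the filter only through E2C, so its direction was fixed by it.

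Fewer genes were detected in the shallower E2C libraries. Of 2662 protein-coding genes with a count in any of the 9 libraries, 343 had counts in E2C alone, 1429 in M2 alone and 890 in both. In all 4 M2 libraries but no E2C library, 34 genes had counts, and for 21 of them at least 3 counts would have fallen in E2C at the M2 level. After Cenpe, Ktn1 and Hsp90aa1 these were led by genes that the filter had left out: Phf20l1, a reader of methylated lysine, with 336 counts in M2 (at least 20.6-fold lower in E2C), Bod1l, a protector of stalled replication forks, with 271 (at least 16.6-fold lower), and Phf14 with 176 (at least 10.8-fold lower). Of the Phf14 counts 139 came from M2 KO 2, and without that library its limit was 4.82-fold. Without E2C Het 3 the limits were 12.3-fold for Phf20l1, 9.96-fold for Bod1l and 6.47-fold for Phf14. These genes were chosen for having no count in E2C, so no test is given, and their limits cover counting error alone. In the other direction 2 genes had counts in at least 4 E2C libraries and none in M2. Plcd4, a phospholipase C, had 2, 3 and 71 counts in E2C Het 1 to 3 and 3 and 0 in E2C KO 1 and 2. Syap1, a synapse-associated protein, had 0, 3 and 61 counts in E2C Het 1 to 3 and 1 and 5 in E2C KO 1 and 2. Most of these counts came from E2C Het 3.

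The change from egg to embryo was also compared between the genotypes. The difference of the E2C over M2 change between KO and Het donors passed for 0 of 89 genes in edgeR (0%), with 8 at an unadjusted p under 0.05 (8.99%), and for 0 in limma-voom and 3 in DESeq2. In the fits of 1 genotype alone no gene passed, with 36 genes in Het and 17 in KO at an unadjusted p under 0.05. The 17 genes called in the main fit kept their direction in each. These fits reuse the libraries that chose the 17, so a kept direction is no separate support. Genes with no count in E2C, such as Cenpe and Ktn1, could not turn. Cenpe had a log2 fold change of -10.13 in KO and -8.42 in Het, and Ktn1 -9.62 in KO and -8.81 in Het. With no count in E2C the data give only a limit, so the size of these values and their gap between genotypes are not measured. Gigyf2 had 2.23 in KO and 2.33 in Het, Ncl -2.11 in KO and -2.58 in Het. A p above the threshold does not show that the genotypes responded alike.

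The smallest p-values of the genotype difference belonged to genes that were present or absent by library. Rdx, the membrane and actin linker radixin, had 26 and 6 counts in E2C KO 1 and 2 and 0 in the 3 E2C Het libraries, against 56 and 543 in M2 KO and 141 and 155 in M2 Het (KO minus Het 8.81, adjusted p = 0.282). Cdk11b had 0 counts in both E2C KO libraries and 63, 348 and 1236 in the E2C Het libraries. In M2 it had 0 and 567 counts in KO 1 and 2 and 280 and 354 in Het 1 and 2 (-11.95, adjusted p = 0.314). Septin7 had 0 counts in both E2C KO libraries and 11, 2 and 35 in E2C Het (-8.57, adjusted p = 0.314). None of the 3 passed. They were chosen for their small p-values, so the way their counts divide by genotype is a description only. Each had 0 counts in all E2C libraries of 1 genotype, so the size of its difference is not measured.

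Set beside the intermediate stage, 14 of the 17 genes (82.4%) had a mean level in PN5 zygotes between those of E2C and M2, as had 48 of all 89 tested genes (53.9%). Genes chosen for a large gap leave more room between, so the shares are not compared further. Cenpe had 2961 CPM in PN5, against 0 in E2C and 5397 in M2, and Ncl 46264 CPM in PN5, against 16176 in E2C and 88822 in M2. Nefh, Creb5 and Gm25855 were the exceptions, with PN5 means of 3059, 345 and 550 CPM, each beyond the M2 mean. The means hide libraries at 0. PN5 Het 3, with 12322 kept counts, had none for Cenpe, Ktn1, Hsp90aa1, Nrd1, Txndc2 and Piezo2, although Cenpe had 37 to 224 counts in the other 5 PN5 libraries. Hsp90aa1 was also at 0 in PN5 KO 1 (18549 kept counts) and Txndc2 in PN5 KO 3 (45608), so a count of 0 for these genes also occurred in libraries deeper than any of E2C.

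The calls varied with the library left out. Without E2C Het 1, M2 Het 1 or M2 Het 2 in turn 5 genes passed, without E2C Het 2 6, without E2C KO 1 7, without M2 KO 2 9, and without E2C KO 2 or M2 KO 1 11. Without E2C Het 3 18 passed, 15 of them among the 17. Cenpe, Ktn1, Hsp90aa1 and Nefh passed in all 9 of these fits, Txndc2 in 7, and no gene that rose passed in more than 3. The genes named here had passed the filter only through M2, so their direction was fixed by it. All 9 fits tested the same filtered genes, so this steadiness is no separate support for a fall.

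**Figure D5:**
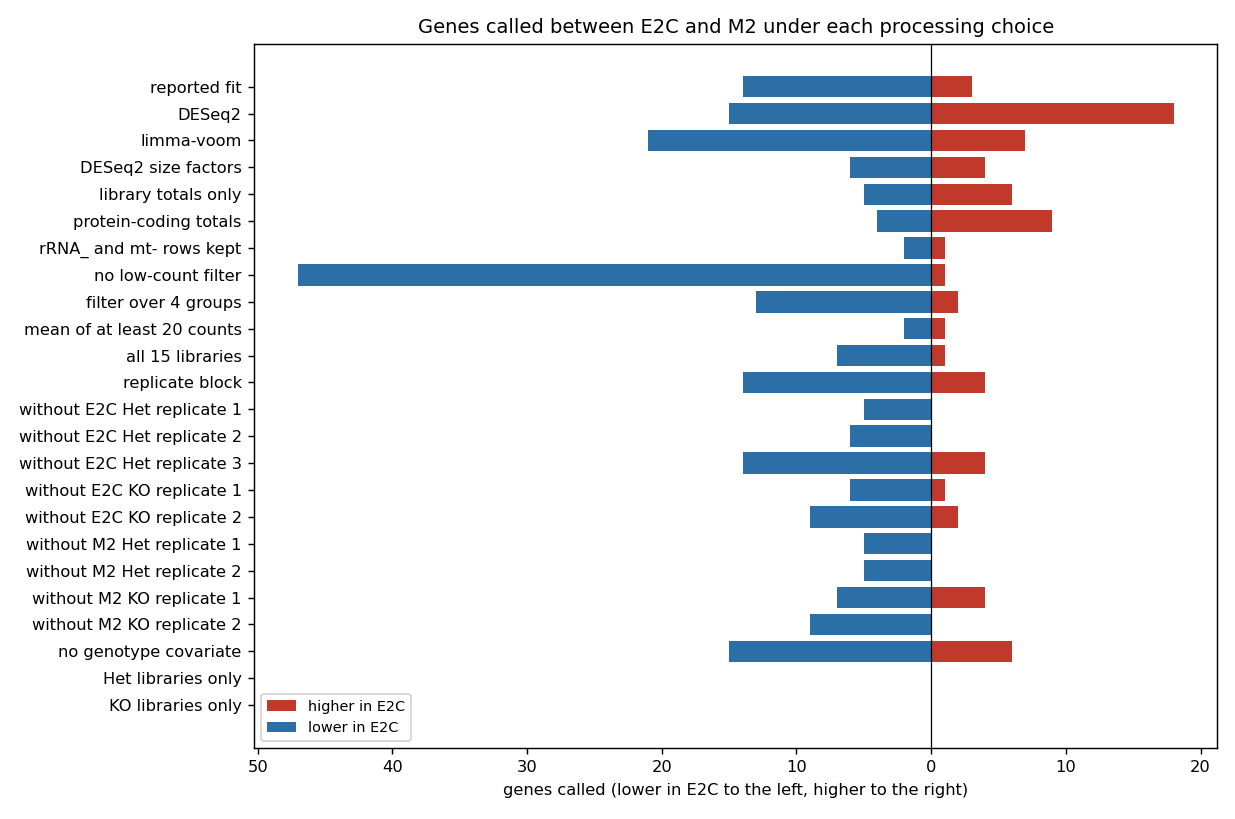
Number of genes called higher in E2C (red, right) and lower in E2C (blue, left) in the reported fit and under each alternative. The reported fit called 3 higher and 14 lower, the fit without a filter 1 and 47, and fits of 1 genotype alone 0.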

How the data were processed

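Ribosome-protected fragments were measured in 15 libraries, of which the 5 E2C and 4 M2 libraries were compared, grouped by sample title. The authors deposited 1 table of 55490 genes in estimated counts (expected counts held as whole numbers); rounding on reading changes nothing. The submitters' processing notes name deepTools 3.5.1, StringTie 2.1.4, STAR 2.7.6a and cutadapt, and the GRCm38 build. The sources used here do not say how reads became counts, so 1 count need not be 1 read. Limits from 3 counts cover counting error alone: without molecular identifiers, PCR copies of a fragment are counted again. Nothing says whether replicates came from separate donors, so p-values measure the spread between these libraries, which may be technical.

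The 3 rRNA_ rows and 37 mt- rows were dropped. RefSeq (GRCm38.p6) matched 39101 rows by symbol and 164 by an older symbol; 16225 had no match. Genes passed filterByExpr (minimum count 10) over the 2 stages. edgeR 4.0.16 (R 4.3.3) fitted TMM-scaled quasi-likelihood models with robust shrinkage, stage plus genotype, on 6 residual degrees of freedom, called at an adjusted p of 0.05. A second model added their interaction. The SE is the size of the log2 fold change over the square root of its F statistic. The common biological coefficient of variation was 0.892. Composition measures used exact permutation within genotypes.

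Named genes were the 12 called protein-coding genes with the smallest p in each direction (where fewer than 5 were called, the 6 with the smallest p), the 8 with the highest mean share per stage, up to 3 tested members per list by mean CPM, up to 6 genes seen in 1 stage only, and up to 5 with the smallest p between genotypes. Other genes were named after their values were seen, among them Gm25855, Gm24452, Gm26109, CT010467.1, Mir6236, Dst, Canx, Hsp90ab1, Anln, Chaf1a and the label-check genes. Members, lists and tests were chosen with earlier results of these data known. Alternatives were DESeq2 1.42.0, limma-voom (limma 3.58.1), other scalings and filters, all 15 libraries, a replicate block, no genotype term, 1 genotype alone and leaving out each library. Same-numbered E2C and M2 libraries deviated together with r = 0.331 (Het 1), 0.0556 (Het 2) and 0.115 (KO), so the numbers were not taken as pairs. Protein sequences were not analysed here.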

Additional observations from a re-analysis of the deposited data

Results flagged for a closer look

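Of 42 groups checked for a single library far from the others by Dixon's test, 7 were past the 95% limit; chance gives about 1 in 20. Protein-coding genes made up 4.57% of the counts of E2C Het 3, far above the other E2C libraries. Nuclear noncoding RNAs took 7.64% of the kept counts of E2C KO 2, far above the other E2C libraries. Piezo2 at 986 CPM and Txndc2 at 657 CPM in E2C Het 1, Nrd1 at 1333 CPM in E2C Het 2 and Nefh at 278 CPM in E2C KO 1 stood apart because the other 4 E2C libraries had 0 counts. Gm25855 had 1488 CPM in M2 KO 1, far above the other M2 libraries.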

How the results depend on the processing

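All 17 genes called in the reported fit kept their direction in every alternative that tested them, but their calls did not all hold. The alternatives draw on the data that chose these genes, and a gene with no count in E2C could not turn. Against 17 calls (3 higher, 14 lower), DESeq2 called 33 (18 and 15), limma-voom 28 (7 and 21), DESeq2 size factors 10 (4 and 6), library totals 11 (6 and 5), protein-coding totals 13 (9 and 4), kept ribosomal and mitochondrial rows 3 (1 and 2), no filter 48 (1 and 47), the filter over 4 groups 15 (2 and 13), a mean of at least 20 counts 3 (1 and 2), all 15 libraries 8 (1 and 7), no genotype covariate 21 (6 and 15), and Het or KO libraries alone 0. With the replicate block, where samples share only a number, 18 were called (4 and 14), 15 of them among the 17, and the genotype difference had 0. Leaving out each library in turn gave 5 to 18 calls, 0 to 4 higher and 5 to 14 lower. The genotype difference called 3 genes with DESeq2, 1 without a filter and 0 to 1 leaving out a library. Permuting stages without regard to genotype gave -2.47 (adjusted p = 0.0317) for the total and -0.99 (adjusted p = 0.0476) for the leading mRNAs, against -1.04 (0.0667) within genotypes; these mRNAs were chosen on the same shares. The cause of these changes was not tested.

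None of the genes whose sign turned had passed the reported fit (log2 fold changes follow). With no filter these were Atad2 -0.36, Rpl4 -0.06, Rps14 -1.09, Wdr43 -1.28, Chd4 -1.09, Bclaf1 -0.96, Rbm25 -0.86, Ythdc1 -0.02, Mir6236 -0.60 and CT010467.1 -0.46, and with the filter over 4 groups Rps14 -0.42, Wdr43 -0.49, Chd4 -0.59, Bclaf1 -0.20 and Rbm25 -0.41. With all 15 libraries Rps14 had -0.08, Wdr43 -0.49 and Chd4 -0.15, and with the replicate block Rps14 had -0.00, Wdr43 -0.12, Chd4 -0.80 and Rbm25 -0.39. In KO libraries alone Rps14 had -0.35, Wdr43 -2.53, Hmgn5 0.11, Chd4 -0.48, Ncor1 0.44, Taf3 1.41, Rmrp 0.19, Mir6236 -0.26 and CT010467.1 -1.32, and in Het libraries alone Cdk11b 2.92, Nap1l1 0.42 and Septin7 1.08. Without the genotype covariate Cdk11b had 2.63, Taf3 0.12, Septin7 0.15 and CT010467.1 -0.33. With protein-coding totals Cdk11b had 0.13, Crebbp 0.10, Brd3 0.09 and Rmrp 0.26, and with a mean of at least 20 counts Cdk11b 0.53, Brd3 0.08 and Rmrp 0.08. Cdk11b had 0.76 with limma-voom, 0.07 with DESeq2 size factors and 0.25 with ribosomal rows kept, and Chd4 -0.26 with limma-voom. Leaving out each library, Cdk11b ran from -3.38 to 2.71, Rps14 from -0.15 to 1.13, Wdr43 from -0.83 to 1.01, Chd4 from -0.4 to 0.89, Rbm25 from -0.2 to 0.9, Rmrp from -1.48 to 0.15, Septin7 from -2.15 to 0.16 and CT010467.1 from -0.22 to 1.82. Depth limits the rest: an E2C library held 1059 to 7795 protein-coding counts.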

Other observations

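Some genes with too few counts for the filter had most of their counts in embryos, mainly in E2C Het 3; they were chosen after their values were seen, so no test is given. Anln, the anillin scaffold of the contractile ring, had 5, 2 and 57 counts in E2C Het 1 to 3 and 2 and 3 in E2C KO 1 and 2, against 3 in M2 Het 1, 2 in M2 KO 2 and 0 in M2 Het 2 and M2 KO 1. Its mean share of protein-coding counts was 0.342% in E2C and 0.00464% in M2. Chaf1a, the large subunit of the histone chaperone CAF-1, had 107 counts in E2C Het 3 and 0 in the other 8 libraries.

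Genes with many counts in a few M2 libraries and none in E2C included Acbd3, a Golgi protein, with 394 and 1003 counts in M2 Het 2 and M2 KO 2 and 0 in the other M2 libraries. Smc6, of the SMC5/6 complex, had 1 count in E2C and 46, 23, 19 and 122 in M2 Het 1, Het 2, KO 1 and KO 2.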
